A study of Mus musculus with 24 samples.

Results

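The samples described here are the 6 livers of mice with a constitutive deletion of FoxO1 in hepatocytes, of 24 liver samples in the series: 3 taken after a fast of 4 h followed by 1 h of refeeding (KO refed) and 3 taken after the fast of 4 h alone (KO fasted), chosen by their titles. They are C57BL/6 mice in which a floxed FoxO1 gene was deleted by an Albumin-cre transgene, and the labels give their genotype as FoxO1-/-. Beside them stand 3 refed and 3 fasted floxed livers of genotype FoxO1lox/lox, called wild type (WT), and 3 refed and 3 fasted livers in which the virus AAV8.TBG.Cre had deleted the floxed gene 21 days earlier (acute Cre). The remaining 3 refed and 3 fasted livers of the series are titled GFP and were also taken 21 days after virus (acute GFP). They enter only the fits that include acute libraries. The albumin promoter drives Cre in hepatocytes, so the other cells of the liver keep FoxO1. Age, sex and the number of mice behind a sample are not labelled. P-values therefore measure how far these libraries spread, and that spread may be technical.

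FoxO1 is a transcription factor of the fasted liver. When insulin is low it sits in the nucleus and drives genes of glucose production and of insulin sensitivity, and when food raises insulin the kinase Akt phosphorylates it and it leaves the nucleus. Feeding also acts through routes that do not need FoxO1, among them the growth kinase mTORC1, the lipogenic factor SREBP-1c, the glucose sensor ChREBP and the clock. The comparison asks what 1 h of food did to transcripts in livers whose hepatocytes had lost the FoxO1 gene.

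Levels are the authors' FPKM, fragments scaled by transcript length and by mapped library size, which allow genes to be compared per length. Changes are refed minus fasted on the log2(FPKM + 1) scale, which understates the change of low genes, and folds are ratios of mean FPKM. A gene was called where limma's test gave an adjusted p under 0.05 over the 10375 genes tested in the 12 constitutive libraries. The labels were first checked at Foxo1 (chromosome 3, 52268337 to 52350109, mm10). It had 0.404, 0.398 and 0.443 FPKM in KO refed and 0.341, 0.494 and 0.465 FPKM in KO fasted livers, below the lowest WT value of 4.21 FPKM. Hepatocyte markers such as Alb and Ttr summed to between 60900 and 63400 FPKM in KO refed and between 58200 and 61600 FPKM in KO fasted livers.

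KO refed 2 stood apart from the other libraries. It correlated with the other 11 constitutive libraries at 0.965 to 0.981, while those correlated with each other at 0.974 to 0.987, and relative depth did not set it apart (1.12 against 1.11 to 1.27 in the other KO libraries). Its Y-linked transcripts were also low. Eif2s3y, a translation factor subunit on the Y chromosome, had 21.8, 12.9 and 25.1 FPKM in KO refed 1, 2 and 3, against 23.8, 25.3 and 24.9 FPKM in KO fasted livers. Ddx3y (2.99 FPKM), Uty (0.804 FPKM) and Kdm5d (1.15 FPKM) were likewise lower in KO refed 2 than in each of the other 11 constitutive libraries, whose lowest values were 4.94, 1.26 and 1.76 FPKM. These lowest values were all in KO refed 1, as was that of Eif2s3y among the other 11 (21.8 FPKM). Xist, which marks the inactive X of females, did not exceed 0.0174 FPKM in any of the 12. What lowered the Y-linked transcripts was not tested, and the number of genes called is given with and without KO refed 2.

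Refeeding changed the transcripts of KO livers within 1 h. limma called 589 of 10375 genes (5.68%), 207 higher (2.0%) and 382 lower (3.68%) in KO refed livers, while 2643 had an unadjusted p under 0.05. The KO refed and KO fasted libraries did not overlap in 3143 genes (30.3%). The median change over all genes tested was -0.021. The count rested on single libraries. It was 317, 86 and 740 without KO refed 1, 2 and 3, and 71, 95 and 269 without KO fasted 1, 2 and 3. With any 1 of these 6 libraries left out, 57 genes stayed called, 20 higher and 37 lower. Under median-of-ratios scaling 391 rose and 435 fell, and without KO refed 3, 379 genes rose and 361 fell, so the direction of the imbalance depended on 1 library. Without KO refed 2 the groups did not overlap in 3860 of 10327 genes (37.4%), with 2 refed libraries left to compare.

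**Figure D1:**
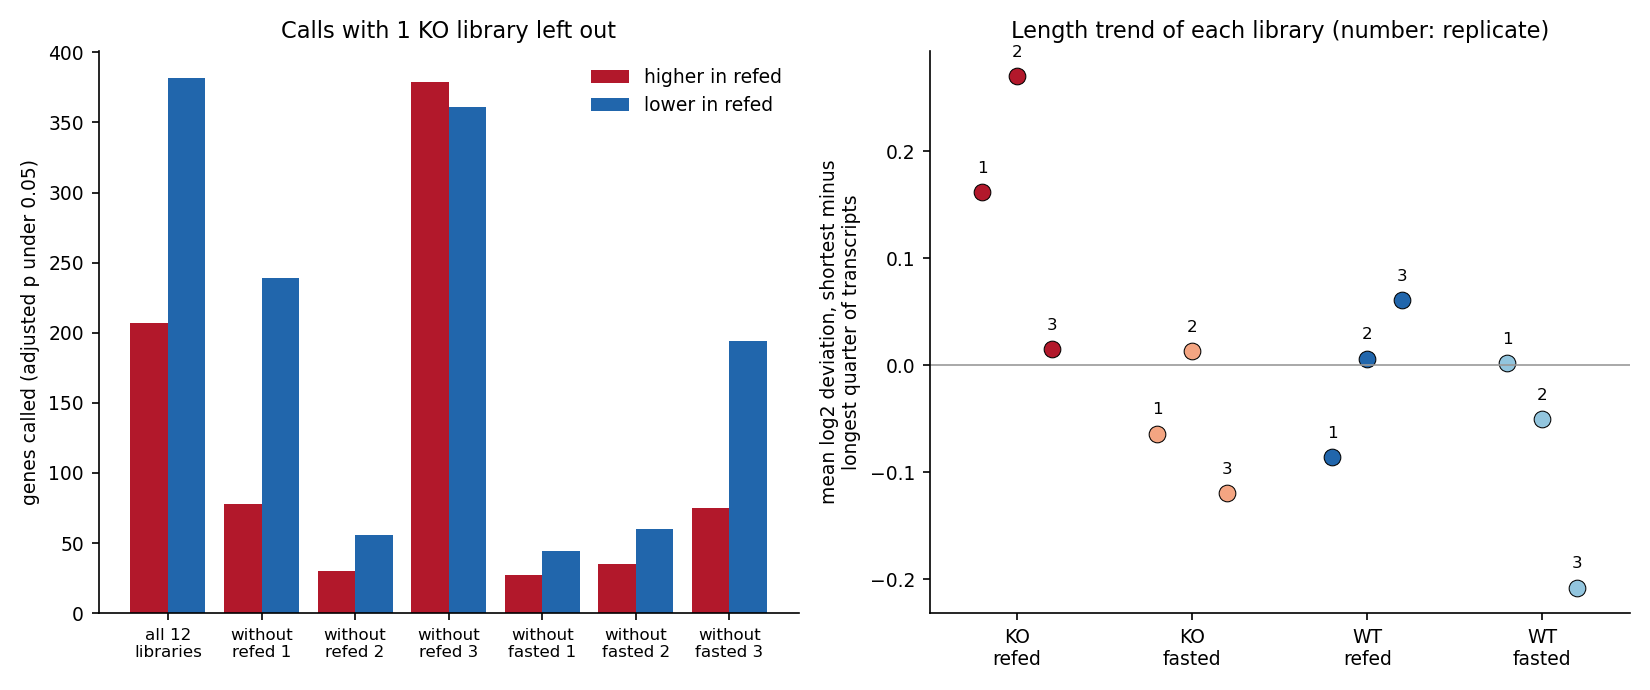
Left, genes called higher (red) and lower (blue) in KO refed than in KO fasted livers, with all 12 constitutive libraries and with 1 KO library left out, by limma at adjusted p under 0.05. Right, each library's mean log2 deviation of the shortest minus the longest transcripts (4 equal bins by length); KO refed 1 and 2 lie highest, at 0.162 and 0.27.

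Among the rising genes, Fmo2 (chromosome 1, 162875047 to 162898712), a flavin-containing monooxygenase, had 6.01, 8.36 and 12 FPKM in KO refed livers, against 1.63, 1.93 and 2.98 FPKM in KO fasted livers. The lowest refed library lay above the highest fasted one. Such separation was a condition for choosing the leading rises and falls, and 30.3% of all genes tested showed it. The log2 change was 1.60 ± 0.25 (SE; limma, adjusted p = 0.00924), and the call held with any KO library left out.

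Several of the other leading rises encode regulators of metabolism and signalling. Thrsp (chromosome 7, 97412957 to 97417510), a nuclear protein that promotes lipid synthesis, had 1150, 1340 and 1210 FPKM in KO refed livers, against 501, 400 and 423 FPKM in KO fasted livers. Refed libraries lay above all fasted ones, 2.79-fold higher on average (log2 change 1.48 ± 0.18, limma adjusted p = 0.00306). Rcan1 (chromosome 16, 92391953 to 92466146), an inhibitor of the phosphatase calcineurin, had 28, 24.5 and 18.9 FPKM in KO refed and 7.41, 6.69 and 7.60 FPKM in KO fasted livers, a 3.29-fold rise. Tfrc (chromosome 16, 32608896 to 32632794), the transferrin receptor that imports iron, had 7.04, 5.80 and 8.42 FPKM in KO refed and 1.89, 2.90 and 2.08 FPKM in KO fasted livers, 3.10-fold higher. Nab1 (chromosome 1, 52455849 to 52500448), a corepressor of Egr factors, had 5.90, 8.17 and 10.4 FPKM in KO refed livers and 2.39, 2.39 and 2.46 FPKM in KO fasted livers. In these genes too, no refed library reached down to the fasted range, as the choice of leading genes required.

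Ccrn4l, which encodes nocturnin, a rhythmic phosphatase of NADPH, had 29.4, 28 and 27.7 FPKM in KO refed and 11.3, 12.5 and 13.4 FPKM in KO fasted livers (log2 change 1.14 ± 0.12, limma adjusted p = 0.00185). Klhl25, a substrate adaptor of the Cullin-3 ubiquitin ligase, rose by 1.06 ± 0.15 (0.0069). Both rises held without any 1 KO library. The secreted liver protein Tsku (1.49 ± 0.31), the calcium-binding Cib3 (1.91 ± 0.39), the trefoil peptide Tff3 (1.41 ± 0.31), the transcription factor Zbtb16 (1.19 ± 0.30) and the transporter Slc22a26 (0.99 ± 0.18) were also called. These 5 calls were less firm. They were lost without KO refed 2 for Tsku, Tff3, Zbtb16 and Slc22a26 and without KO refed 1 for Cib3, Tsku and Zbtb16. Over these 5 genes the adjusted p reached between 0.0576 and 0.149 with 1 library left out, KO fasted libraries included.

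**Figure D2:**
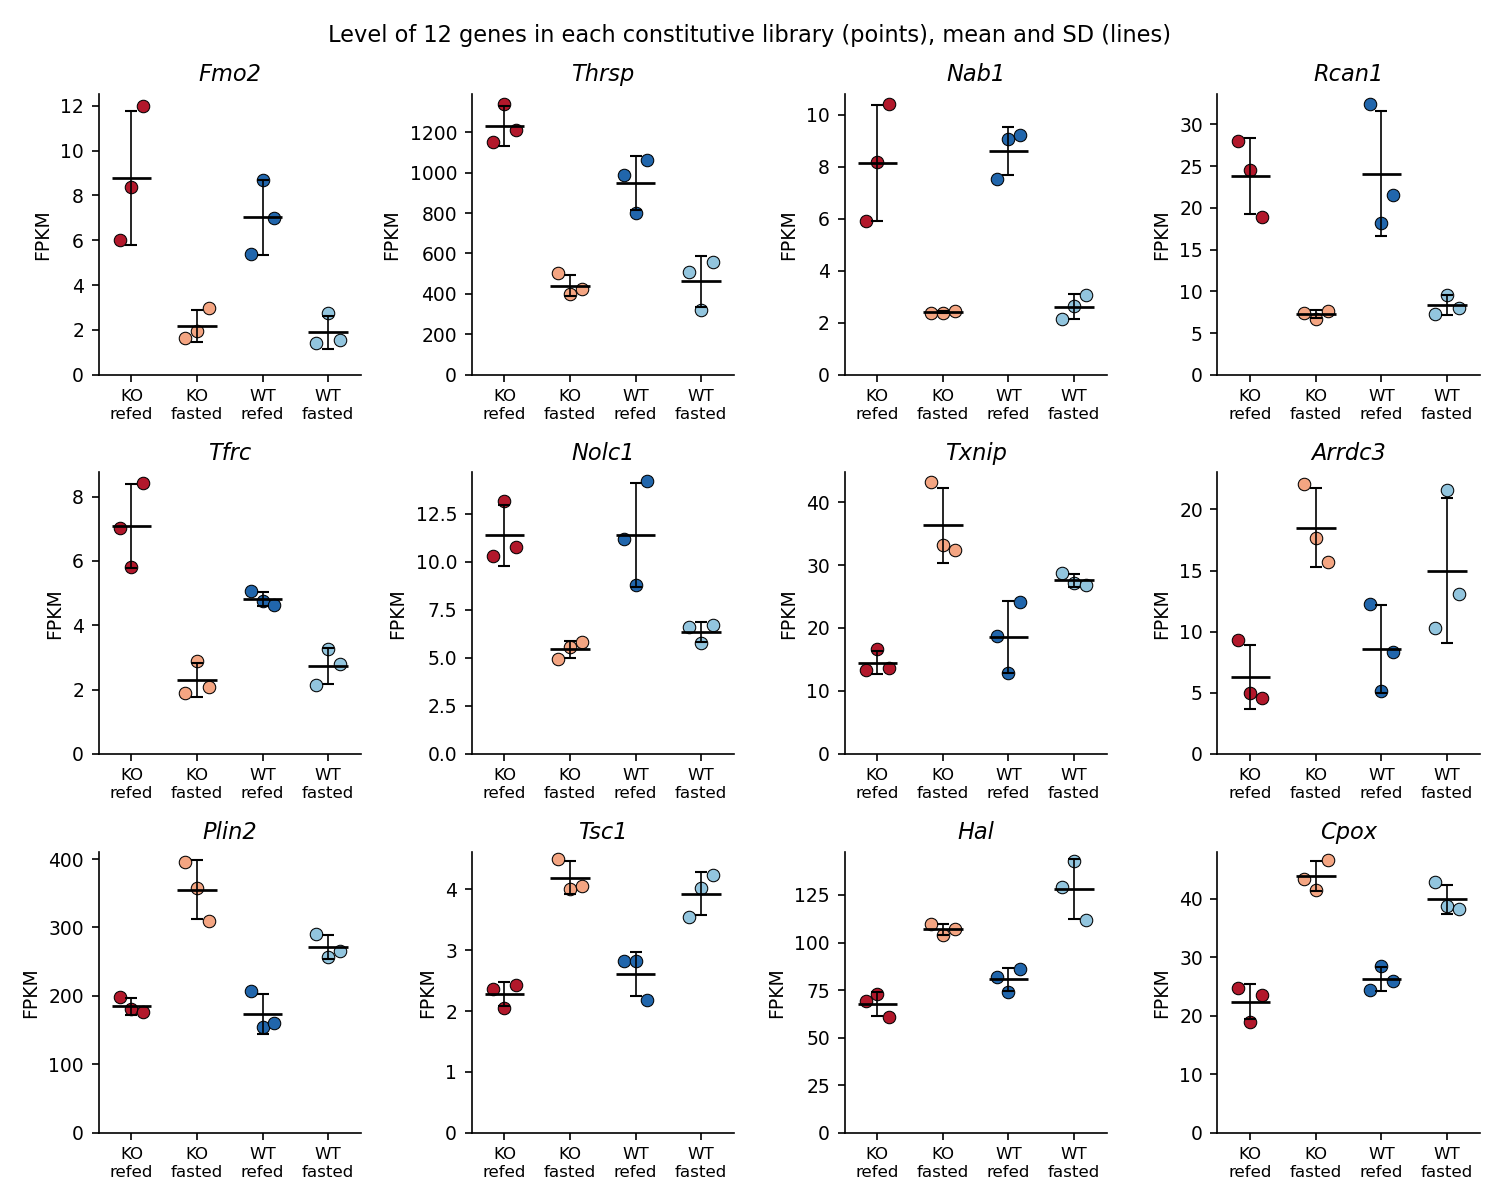
FPKM of 12 genes in each of the 12 constitutive libraries (points), with the mean (bar) and SD (whisker) of 3 libraries a group; refed stands left of fasted in KO and in WT. The first 6 genes rose and the last 6 fell in KO livers, and in all 12 the KO refed and KO fasted points are separate. Leading rises and falls were picked for this separation, which 3143 of 10375 genes (30.3%) showed.

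Among the falling genes, the alpha-arrestins Txnip and Arrdc3 were prominent. Txnip (chromosome 3, 96557957 to 96561857), which restrains glucose uptake and binds thioredoxin, had 13.3, 16.6 and 13.6 FPKM in KO refed livers, against 43.2, 33.2 and 32.4 FPKM in KO fasted livers. Every refed library was below every fasted one, a condition for leading falls, and the mean fell 2.50-fold (log2 change -1.26 ± 0.18, limma adjusted p = 0.0069). Arrdc3 (chromosome 13, 80883422 to 80896043), which directs receptors to degradation, had 9.29, 4.98 and 4.54 FPKM in KO refed livers and 22.1, 17.7 and 15.7 FPKM in KO fasted livers (-1.47 ± 0.32, adjusted p = 0.027). The call of Txnip held with any KO library left out, while that of Arrdc3 was lost without KO refed 2 or 3 or KO fasted 1 or 2 (adjusted p up to 0.111). Of the 12 genes in a list of arrestins and nutrient sensors these 2 were called, where 3.68% of all genes were called lower, and the close relative Arrdc4 had a log2 change of 0.17, in the other direction and not called.

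Other large falls were in the kinase Sgk2 (-1.11 ± 0.12, limma adjusted p = 0.00185), the zinc finger antiviral cofactor Khnyn (-1.13 ± 0.12, 0.00185), the polyadenylation factor Cpeb4 (-1.12 ± 0.18, 0.0107) and the heme synthesis enzyme Cpox (-0.94 ± 0.10, 0.00185). Cpox (chromosome 16, 58670208 to 58680389) had 24.7, 19.0 and 23.6 FPKM in KO refed and 43.4, 41.5 and 46.7 FPKM in KO fasted livers. These 4 calls held with any KO library left out. Rnf152, a lysosomal ubiquitin ligase that inhibits mTORC1, fell by 1.17 ± 0.20 (adjusted p = 0.0124, or 0.0572 without KO fasted 1). The mitochondrial carrier Slc25a30, the tight junction protein Cldn1, the receptor kinase Erbb3, the kinase Pim1 and the collagen Col20a1 fell by 0.99 to 1.13, and each of these 5 calls was lost without at least 2 of the 6 libraries, KO refed 2 among them except for Col20a1 (adjusted p up to 0.106).

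The values of 3 falling loci are uncertain. Tymp, thymidine phosphorylase (chromosome 15, 89371931 to 89377037), and Sco2, an assembly factor of cytochrome c oxidase (89371637 to 89373818), overlap, and their reads may be shared, since no source used here says whether reads were assigned by strand. Tymp had 14.5, 7.80 and 6.56 FPKM in KO refed and 30.9, 27.4 and 28.1 FPKM in KO fasted livers, and Sco2 had 24, 17.6 and 11.1 FPKM in KO refed and 37.6, 48.1 and 39.2 FPKM in KO fasted livers. The pseudogene Apoo-ps (chromosome X, 94367124 to 94398202) was listed at or near 0 in the 3 KO refed libraries, at most 0.000757 FPKM, and had 4.76, 5.76 and 6.45 FPKM in KO fasted livers. Its parent gene Apoo had 26.3, 25.5 and 24.4 FPKM in KO refed livers and 23.5, 19.8 and 20.9 FPKM in KO fasted livers, and reads of the copies can be split between them, so no fold is given.

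Of the genes that build ribosomes, 12 rose. Of 31 ribosome biogenesis genes tested, 29 had a change above 0 and 12 were called, all higher, where 2.0% of all genes tested were called higher. All gene lists of this report were chosen with earlier results of these data known. Counts beside the share of all genes are therefore descriptions and not tests. Their median change was 0.35, beside -0.021 over all genes. Nolc1 (chromosome 19, 46075863 to 46085531), a nucleolar chaperone, had 10.3, 13.2 and 10.8 FPKM in KO refed livers, against 4.93, 5.55 and 5.84 FPKM in KO fasted livers, so the groups were separate (log2 change 0.94 ± 0.14, limma adjusted p = 0.00831). Nop58, a core protein of box C/D nucleolar RNPs, had 12.9, 16.7 and 11.3 FPKM in KO refed and 5.31, 6.96 and 7.15 FPKM in KO fasted livers (0.96 ± 0.19, 0.0206). Its partner Nop56 (0.74), the rRNA methyltransferase Nop2 (0.74), Rrp12 (0.60), Wdr43 (0.58), Tsr1 (0.51), Gnl3 (0.50), the RNA polymerase I initiation factor Rrn3 (0.40), Wdr12 (0.37), the polymerase subunit Polr1a (0.35) and Noc3l (0.29) also rose. Dkc1 (-0.04) and Polr1b (-0.0048) were the 2 members below 0. The number called was 7, 1 and 14 without KO refed 1, 2 and 3, and 1, 2 and 3 without KO fasted 1, 2 and 3, with medians from 0.31 to 0.39, and the call of Nolc1 held in each.

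Promoters of 2 of the called members are shown because the E-box CACGTG, a letter pattern that Myc and related factors are known to bind, was more frequent in this list than among all genes. On either strand it was in 4 of 11 promoters of called members (36.4%) and in 8 of 26 promoters of tested members (30.8%). Among all genes tested it was in 918 of 7426 promoters (12.4%). It was in 25 of 136 promoters of genes called higher and in 38 of 272 of genes called lower. The tested arrestin and nutrient-sensing genes held it as often, in 4 of 11 promoters (36.4%), though neither of the 2 called there did. The pattern was thus not particular to ribosome biogenesis genes. A match is a description of the letters and not a bound site. The sequences are from RefSeq (GRCm38.p6, plus strand for both), from 250 bases before to 50 after the start, with E-boxes in capitals. Nop2 lies at chr6:125131633-125131932 with a match 60 bases before the start, and Rrn3 at chr16:13780449-13780748 with 2 matches, 215 and 48 bases before it.
Nop2: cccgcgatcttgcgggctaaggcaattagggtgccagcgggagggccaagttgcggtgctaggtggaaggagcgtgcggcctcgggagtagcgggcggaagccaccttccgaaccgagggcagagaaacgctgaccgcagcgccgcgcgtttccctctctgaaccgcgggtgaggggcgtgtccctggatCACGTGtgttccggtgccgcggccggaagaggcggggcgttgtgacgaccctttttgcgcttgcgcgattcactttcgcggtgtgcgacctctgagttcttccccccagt
Rrn3: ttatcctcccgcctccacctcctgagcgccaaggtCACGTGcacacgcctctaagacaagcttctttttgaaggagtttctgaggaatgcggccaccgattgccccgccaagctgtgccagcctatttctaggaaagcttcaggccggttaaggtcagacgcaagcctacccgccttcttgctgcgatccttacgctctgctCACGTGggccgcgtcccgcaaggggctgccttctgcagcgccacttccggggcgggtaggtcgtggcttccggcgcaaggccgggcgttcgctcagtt

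Of the cytosolic ribosomal protein genes, 4 rose. All 32 tested had a change above 0, with a median of 0.29, and the 4 called, where 2.0% of all genes were called higher, were Rpl18 (0.41), Rps27a (0.38), Rpl32 (0.37) and Rps6 (0.32). Rpl18 had 331, 367 and 298 FPKM in KO refed livers, against 255, 255 and 234 FPKM in KO fasted livers, with no overlap. By limma none of the 32 was called without KO refed 1 or 2 or any 1 KO fasted library, and 18 were called without KO refed 3. Median-of-ratios scaling called 17. These transcripts are short, with a median of 1124 bases against 3145 for all genes, and short transcripts as a whole were higher in KO refed livers. In 4 equal bins by length, the median change was 0.1 in the shortest and -0.12 in the longest transcripts. With that trend removed, the ribosomal protein genes had a median change of 0.18 and 3 were called, and 14 ribosome biogenesis genes were called. Processed copies of ribosomal protein genes can take reads, so single members are uncertain.

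Several brakes on mTORC1 and on translation fell. Of 17 genes tested, from a list of 19, 13 were below 0, with a median of -0.28, and 5 were called, all lower, where 3.68% of all genes were called lower. Tsc1 (chromosome 2, 28641243 to 28691167), a subunit of the complex that holds mTORC1 off when insulin is low, had 2.36, 2.05 and 2.43 FPKM in KO refed livers, against 4.50, 4.01 and 4.06 FPKM in KO fasted livers. The groups did not overlap (log2 change -0.66 ± 0.10, limma adjusted p = 0.0069), and the call held with any KO library left out. Pdcd4, an inhibitor of the helicase eIF4A, had 19.6, 18.8 and 18.5 FPKM in KO refed and 34.4, 31.5 and 26.5 FPKM in KO fasted livers (-0.67 ± 0.11, 0.0108, or 0.0537 without KO fasted 1). Fnip1 (-0.65) and Flcn (-0.47), which form the folliculin complex of the lysosome, and the antiproliferative Btg1 (-0.36) fell as well, but each of these 3 calls was lost without at least 5 of the 6 libraries, KO refed 1 and 2 among them (adjusted p up to 0.137). The translation repressors Eif4ebp1 (0.25) and Eif4ebp3 (0.68) and the mTORC1 inhibitor Ddit4 (0.59) were above 0 and not called. With the length trend removed 10 of 17 were below 0 and 3 were called.

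Among the known FoxO targets, 4 fell in KO refed livers. Of 25 tested, from a list of 26, 16 were below 0 and 9 above it, with a median of -0.13, and the 4 called, where 3.68% of all genes were called lower, were Txnip, the cyclin Ccng2 (-0.75), the mTORC2 subunit Rictor (-0.45) and Btg1. The list counts genes bound or driven by any FoxO factor, and Foxo3 (-0.14) and Foxo4 (-0.19) were not called. Irs2 (chromosome 8, 10986964 to 11008430), the insulin receptor substrate that feeding represses, had 0.926, 0.732 and 0.811 FPKM in KO refed livers and 2.41, 1.89 and 1.07 FPKM in KO fasted livers. Its libraries did not overlap, but its log2 change of -0.59 ± 0.20 missed the threshold (limma, adjusted p = 0.0984). Igfbp1, an insulin-repressed binding protein of IGF1, had 18.5, 17.4 and 15.5 FPKM in KO refed and 26.8, 20.9 and 16.5 FPKM in KO fasted livers, which overlap (-0.28 ± 0.21, 0.424). The calls of Ccng2 and Rictor were each lost without 4 or 5 of the 6 libraries, KO refed 2 among them (adjusted p up to 0.101), and without KO refed 2 only Txnip was called. Rictor and Btg1 also lost their calls with the length trend removed.

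Txnip and Btg1 are the called FoxO targets whose promoters hold the forkhead pattern GTAAACA, and they are shown for that reason. It was in 3 of 21 promoters of tested FoxO targets (14.3%), beside 247 of 7426 promoters of all genes tested (3.33%), 3 of 136 of genes called higher (2.21%) and 10 of 272 of genes called lower (3.68%), on either strand. The share among falling genes was thus close to that among all genes. The windows are again RefSeq GRCm38.p6, plus strand, with the pattern in capitals, 121 bases before the start for Txnip at chr3:96557707-96558006 and 204 bases before it for Btg1 at chr10:96616751-96617050. Binding of FoxO1 or of other forkhead factors at these sites was not measured.
Txnip: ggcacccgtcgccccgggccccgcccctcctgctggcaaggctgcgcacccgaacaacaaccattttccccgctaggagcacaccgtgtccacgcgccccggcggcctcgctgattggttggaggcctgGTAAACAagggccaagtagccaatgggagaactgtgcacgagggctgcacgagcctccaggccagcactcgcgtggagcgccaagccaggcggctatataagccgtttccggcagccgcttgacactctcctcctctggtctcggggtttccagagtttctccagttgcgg
Btg1: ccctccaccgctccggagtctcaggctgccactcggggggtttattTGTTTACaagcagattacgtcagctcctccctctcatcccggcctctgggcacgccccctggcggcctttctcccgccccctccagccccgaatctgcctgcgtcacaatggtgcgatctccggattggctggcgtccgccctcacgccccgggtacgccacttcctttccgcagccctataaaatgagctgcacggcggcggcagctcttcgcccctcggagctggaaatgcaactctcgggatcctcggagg

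Of 16 gluconeogenesis genes 1 was called, a share near the 5.68% of all genes. It was Slc37a4, the glucose-6-phosphate transporter of the endoplasmic reticulum, which rose (log2 change 0.40, limma adjusted p = 0.0325), a call lost without 5 of the 6 libraries, all but KO refed 3 (up to 0.118). G6pc, the catalytic subunit, had 167, 152 and 146 FPKM in KO refed livers and 170, 161 and 87.7 FPKM in KO fasted livers, and Pck1, which makes phosphoenolpyruvate, had 863, 730 and 1210 FPKM in KO refed livers and 704, 651 and 1210 FPKM in KO fasted livers. The groups overlapped in both (adjusted p = 0.741 and 0.704), and neither direction was stable when a library was left out. The coactivator Ppargc1a was at -0.34 ± 0.13 and did not pass (0.126).

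Lipid synthesis was called at Thrsp and at Acacb, the acetyl-CoA carboxylase of mitochondria that makes an inhibitor of fatty acid import. Acacb had 10.3, 8.55 and 10.1 FPKM in KO refed and 5.85, 7.29 and 5.02 FPKM in KO fasted livers (log2 change 0.60 ± 0.15, limma adjusted p = 0.0401), and its call was lost without any 1 of the 6 libraries (adjusted p up to 0.122). Of the 22 fatty acid synthesis genes 16 were above 0, with a median of 0.21, and 2 were called higher, where 2.0% of all genes were. Fatty acid synthase Fasn (0.95), the elongase Elovl6 (1.07), Lpin1 (1.36) and the lipogenic factor Srebf1 (0.64 ± 0.28, adjusted p = 0.173) were among them and did not pass. Of the 22 cholesterol synthesis genes 17 were above 0, with a median of 0.33, and none of these rose past the threshold. A fall was called in Insig2 (-0.93, adjusted p = 0.0249), which retains SREBP precursors in the endoplasmic reticulum and whose liver transcript insulin is known to lower. That call was lost without KO refed 2 or any 1 KO fasted library (up to 0.0979). It was 1 of the 22 genes, a share near the 3.68% of all genes called lower.

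Several genes of fatty acid oxidation fell. Of 32 PPAR-alpha targets and oxidation genes 26 were below 0, with a median of -0.26, and 4 were called, all lower, where 3.68% of all genes were called lower. Plin2 (chromosome 4, 86656565 to 86670059), which coats lipid droplets, had 199, 181 and 176 FPKM in KO refed livers, against 396, 358 and 310 FPKM in KO fasted livers. Refed levels were about 1.92-fold lower with no overlap (log2 change -0.93 ± 0.12, limma adjusted p = 0.00448). The mitochondrial thioesterase Acot2 had 3.89, 5.07 and 5.71 FPKM in KO refed and 7.73, 8.75 and 10.6 FPKM in KO fasted livers (-0.77 ± 0.13, 0.0134). Both calls held with any KO library left out. Cpt2, of mitochondrial import, fell by 0.25 ± 0.064 (0.0456), a call lost without any 1 of the 6 libraries (adjusted p up to 0.149). With 1 library left out, 2 or 3 members of the list were called. The PPAR-alpha targets Pdk4 (-0.32) and Fgf21 (-0.47) overlapped between groups and did not pass.

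In bile acid metabolism the 2 canalicular pumps fell and the first enzyme did not pass. Abcc2 had 55.2, 41.1 and 58.1 FPKM in KO refed and 82.1, 74.2 and 82.1 FPKM in KO fasted livers (log2 change -0.63 ± 0.15, limma adjusted p = 0.0352), and Abcb11, the bile salt pump, had 67.5, 66.4 and 63.1 FPKM in KO refed and 86.1, 78.2 and 79.8 FPKM in KO fasted livers (-0.30 ± 0.076, 0.0408). Both were apart in every library, and both calls were lost without KO refed 1 or 2 or any 1 KO fasted library. Cyp7a1, which hydroxylates cholesterol in the rate-limiting step, had 90.2, 71.9 and 46.6 FPKM in KO refed and 32.2, 35.5 and 39.2 FPKM in KO fasted livers (0.90 ± 0.29, 0.0818). Its libraries did not overlap. Cyp8b1, which sets the share of cholic acid, was at -0.36 ± 0.25 (0.388). Of the 17 genes 12 were below 0, with a median of -0.20, and the 2 pumps were called lower, where 3.68% of all genes were.

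**Figure D3:**
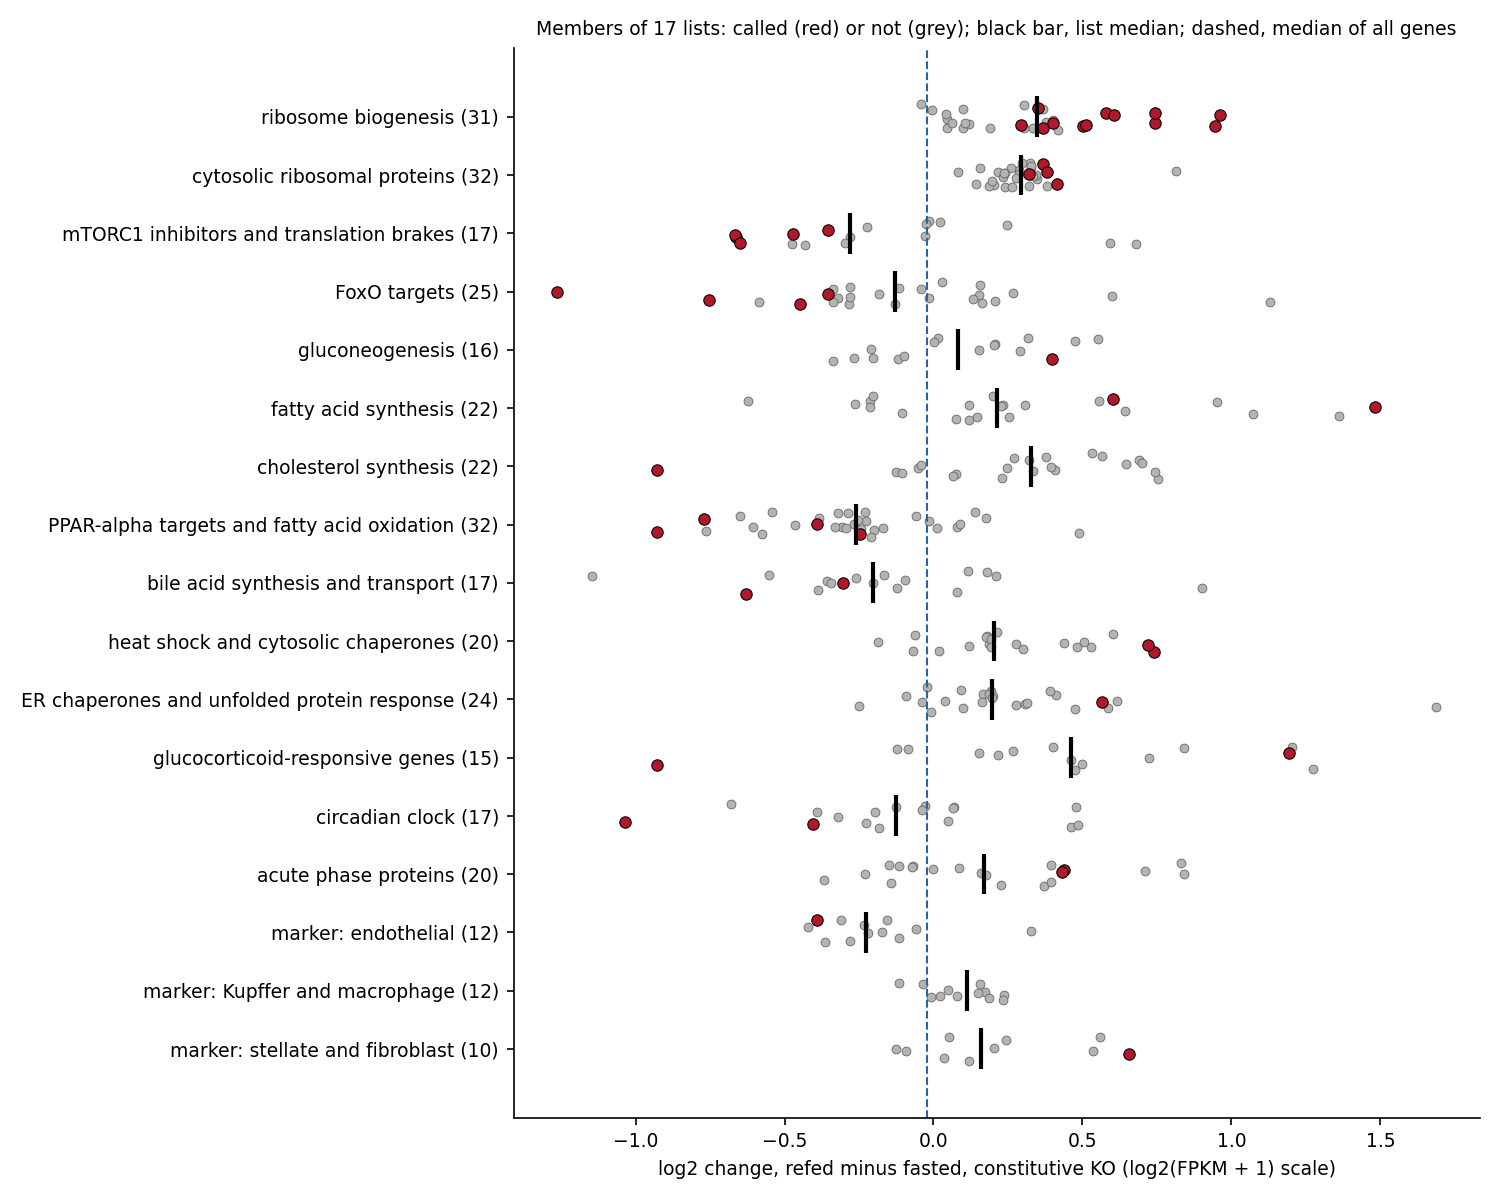
Log2 change (refed minus fasted, log2(FPKM + 1)) of each tested member of 17 gene lists in constitutive KO livers, with the number tested in brackets; red points were called by limma at adjusted p under 0.05 and grey points were not. Black bars are list medians and the dashed line is the median of all genes; the ribosome biogenesis bar lies at 0.35 and the PPAR-alpha bar at -0.26.

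The chaperone lists held 3 rising genes. Of 20 cytosolic heat shock genes 17 were above 0, with a median of 0.20, and Hspa1b, an inducible Hsp70, and its cochaperone Bag3 were called higher, as were 2.0% of all genes. Bag3 had 12.7, 11.6 and 9.79 FPKM in KO refed livers, against 6.32, 6.43 and 6.65 FPKM in KO fasted livers (log2 change 0.72 ± 0.14, limma adjusted p = 0.0198). Hspa1b had 3.09, 3.02 and 3.46 FPKM in KO refed and 1.3, 1.76 and 1.49 FPKM in KO fasted livers (0.74 ± 0.17, 0.0333), and it is near-identical to Hspa1a (0.53), so their reads may be split. The groups did not overlap in either, but Bag3 was not called without KO refed 1 or 2 or KO fasted 1 or 2, nor Hspa1b without any 1 of the 6 libraries (adjusted p up to 0.118). Of 24 endoplasmic reticulum chaperones 19 were above 0 and Dnajb9 (0.56), which assists BiP, was called (0.04), though not without any 1 KO library. The ATF4 target Trib3, a pseudokinase that binds Akt, was at -0.66 (adjusted p = 0.109). None of 19 ATF4 targets, 20 immediate early genes, 19 interferon genes or 20 aminoacyl-tRNA synthetases was called by limma, and with 5.68% of all genes called, a count of 0 in lists of this size says little.

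Among 17 clock genes, Nr1d1 (chromosome 11, 98767935 to 98775242), the repressor Rev-erb-alpha, had 16.7, 16.7 and 12.3 FPKM in KO refed livers, against 32.0, 37.2 and 27.3 FPKM in KO fasted livers. It fell 2.11-fold with no overlap (log2 change -1.03 ± 0.24, limma adjusted p = 0.0343), and Clock fell by 0.40 ± 0.093 (0.0325). They were the 2 calls among the 17, where 3.68% of all genes were called lower. The period genes Per1 (0.46) and Per2 (0.48) were above 0 and did not pass. Of 15 glucocorticoid-responsive genes 12 were above 0, with a median of 0.46. Of the 15, Zbtb16 was called higher, as were 2.0% of all genes. Klf9, a repressor that glucocorticoids induce, was called lower, as were 3.68% of all genes. Klf9 had 10.6, 7.97 and 13.5 FPKM in KO refed and 23.8, 19.2 and 19.8 FPKM in KO fasted livers (-0.93 ± 0.16, 0.0134). Nr1d1 lost its call without any 1 library and Clock without 5 of 6, KO refed 2 among them, while Klf9 lost it only without KO fasted 1 (0.0648). The clock time of sampling is not labelled, so time of day and food cannot be told apart in these genes.

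Other calls were in amino acid, redox and secreted protein genes. Hal (chromosome 10, 93488768 to 93516743), which degrades histidine, had 69.1, 72.8 and 60.6 FPKM in KO refed livers, against 110, 104 and 107 FPKM in KO fasted livers, a clear separation (log2 change -0.66 ± 0.10, limma adjusted p = 0.00831) that held with any KO library left out. Asl, of the urea cycle, rose instead, with 335, 395 and 361 FPKM in KO refed and 219, 232 and 281 FPKM in KO fasted livers (0.58 ± 0.13, 0.0308). They were the 2 calls among 28 genes of amino acid catabolism, a share near the 5.68% of all genes called. Gclc (-0.78), which limits glutathione synthesis, and catalase Cat (-0.36) fell among 15 NRF2 genes, where 3.68% of all genes were called lower. The acute phase proteins Hp (0.44) and Crp (0.43) rose among 20 acute phase genes, where 2.0% of all genes were called higher. Pigr (-0.52), which transports polymeric immunoglobulin, fell. The calls of Asl, Gclc, Cat, Hp, Crp and Pigr were each lost without KO refed 2 or without KO fasted 1 or 2, with adjusted p up to 0.149.

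Among markers of other liver cells, most endothelial ones were lower in KO refed livers, while stellate and macrophage sums overlapped between the groups. Of 12 endothelial markers 11 were below 0, with a median of -0.23. Only Fcgr2b (-0.39), an inhibitory Fc receptor of liver sinusoids, was called, where 3.68% of all genes were called lower. Their summed level was 60.7 to 63.1 FPKM in KO refed and 66.9 to 78.1 FPKM in KO fasted livers, with no overlap. Of all single genes tested, 30.3% did not overlap. Of 10 stellate and fibroblast markers 8 were above 0. Only Col1a2 (0.66), a chain of collagen I, was called, where 2.0% of all genes were called higher. The sums were 157 to 174 FPKM in KO refed and 134 to 169 FPKM in KO fasted livers. None of 12 macrophage markers was called, with sums of 174 to 239 FPKM in KO refed and 159 to 220 FPKM in KO fasted livers. The calls of Fcgr2b and Col1a2 were lost without any 1 KO library (adjusted p up to 0.136). The adipocyte genes Lep and Retn and the acinar genes Prss2, Cpa1, Pnlip, Ctrb1 and Try4 were at 0 in all 6 KO libraries, but other markers of both types were detected. The acinar markers summed to 11.6 to 13.6 FPKM in KO refed and 16.3 to 22.3 FPKM in KO fasted livers, with no overlap. Only 1 of the 8 acinar markers was high enough to be tested, at -0.58 and not called. The acinar sum therefore says little about acinar cells. The adipocyte markers summed to 9.65 to 13.4 FPKM in KO refed and 8.38 to 10.4 FPKM in KO fasted livers. In whole liver, fewer cells of a type and less RNA per cell cannot be told apart, and the part of these shifts in the results above was not tested. The length trend also differed by library. The mean deviation of the shortest minus the longest of these bins was 0.162, 0.27 and 0.0151 in KO refed 1, 2 and 3, and -0.0641, 0.0131 and -0.12 in KO fasted 1, 2 and 3. Genes called higher had a median length of 2276 bases and genes called lower of 4386 bases. With the trend removed 260 genes were called higher and 310 lower, and 412 of the 589 calls remained. Of the 67 called named genes 11 lost their calls. They were Tff3, Rictor, Btg1, Abcb11, Clock, Flcn, Rpl32, Rps6, Hp, Crp and Map1lc3a.

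The same hour of food was compared in WT livers, where FoxO1 is present. limma called 33 genes there (0.318%), 16 higher and 17 lower, and 28 of them were called in KO livers in the same direction, which is 84.8% of the WT calls and 4.75% of the KO calls. Without KO refed 2, 21 were shared, 63.6% of the WT calls and 24.4% of the KO calls. Of the 207 genes that rose in KO livers 201 were also above 0 in WT livers, with median changes of 0.47 in KO and 0.30 in WT. Of the 382 that fell, 362 were below 0 in WT livers, with medians of -0.49 in KO and -0.27 in WT. These genes were picked for their change in KO livers, which favours the larger value there. Tested directly, no gene passed for a difference between the KO and WT responses. limma called 0 of 10375, with 457 at an unadjusted p under 0.05 (4.4%) and a smallest adjusted p of 0.963. More calls in KO than in WT livers are thus not shown to be a larger response.

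**Figure D4:**
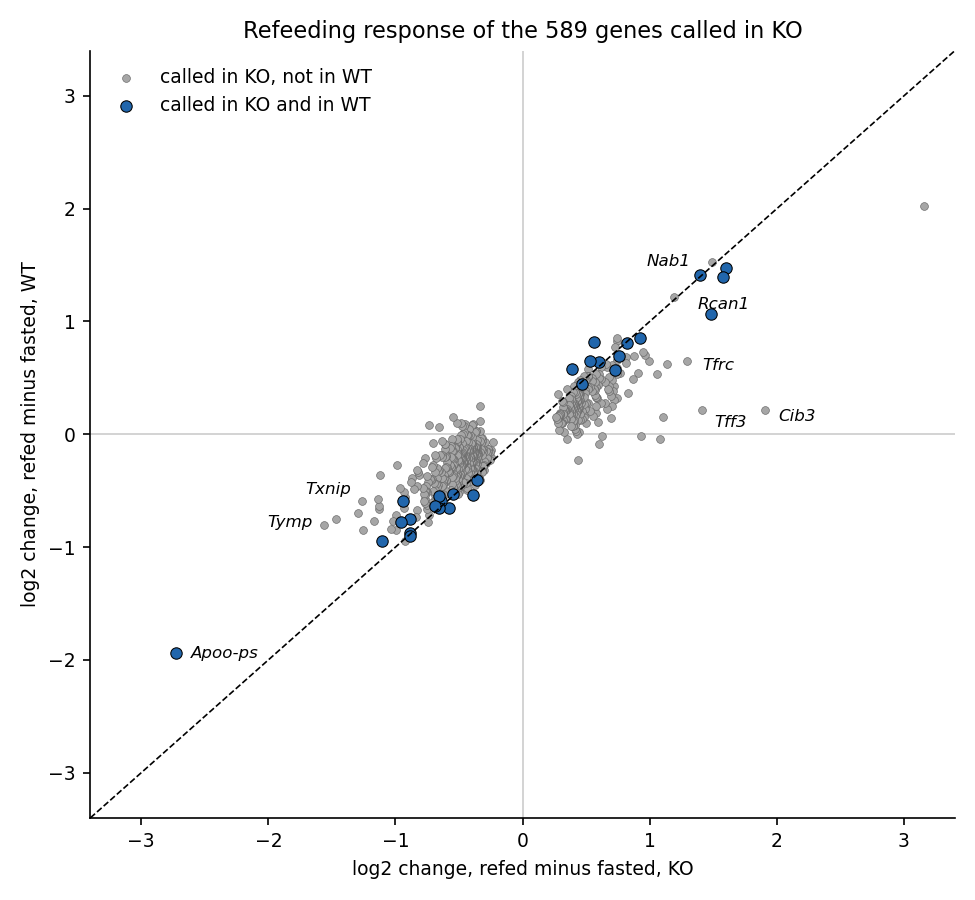
Log2 refeeding change in KO livers (x axis) and in WT livers (y axis) for the 589 genes called in KO livers, both on the log2(FPKM + 1) scale; blue points were also called in WT livers and the dashed line marks equal change. Cib3 reached 1.91 in KO and 0.21 in WT, and Nab1 reached 1.39 in KO and 1.41 in WT.

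The values of single genes and lists were alike in the KO and WT responses in some cases and less so in others, though no gene was called for a difference. Nab1 had 5.90, 8.17 and 10.4 FPKM in KO refed livers and 2.39, 2.39 and 2.46 FPKM in KO fasted livers. In WT livers it had 7.54, 9.07 and 9.2 FPKM refed and 2.13, 2.65 and 3.08 FPKM fasted. Its log2 change in WT was 1.41 ± 0.16 (limma adjusted p = 0.00721), so it rose in both genotypes. The KO minus WT difference was -0.016 ± 0.22 for Nab1, -0.0004 ± 0.14 for Hal and -0.67 ± 0.26 for Txnip. Cib3 had a difference of 1.70 ± 0.56 (adjusted p = 0.963), and Tff3 had 1.20 ± 0.43 (0.963). Ribosome biogenesis genes had 30 of 31 members above 0 in WT livers, with a median of 0.32 and none called, beside a median of 0.01 over all genes. PPAR-alpha targets had 24 of 32 below 0 in WT livers, with a median of -0.17 and none called. Other lists had medians of opposite sign in KO and WT livers, and differences between lists were not tested. Cholesterol synthesis genes had 17 of 22 members above 0 in KO and 10 of 22 in WT livers, with medians of 0.33 in KO and -0.028 in WT, and the difference was above 0 in 21 of 22. Clock genes had medians of -0.13 in KO and 0.06 in WT livers, with the difference below 0 in 15 of 17. Endothelial markers had medians of -0.23 in KO and 0.09 in WT livers, with the difference below 0 in 12 of 12. The median difference was 0.33, -0.22 and -0.36 in these 3 lists, beside -0.026 over all genes, and none of their members was called for it by limma.

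The same food change was then compared after acute deletion. In a joint fit of 24 libraries, in which the median change over all genes was 0.077 in acute Cre livers, limma called 1240 of 10682 genes in acute Cre livers (11.6%), 1013 higher (9.48%) and 227 lower (2.13%), or 484 higher and 453 lower under median-of-ratios scaling. Fitted on the 12 acute libraries alone, acute Cre and acute GFP, it called 569, beside 589 in constitutive KO livers from 12 libraries. Of the 589 calls in constitutive KO livers 131 were called the same way in acute Cre livers, which is 22.2% of the constitutive calls and 10.6% of the acute ones, and 3 were called the other way. Without KO refed 2, 25 were called the same way, 29.1% of the constitutive calls and 2.02% of the acute ones. Of 31 ribosome biogenesis genes 12 were called higher in constitutive KO and 21 in acute Cre livers, with medians of 0.35 in constitutive KO and 0.46 in acute Cre. Of 32 PPAR-alpha targets 4 were called lower in constitutive KO and 3 in acute Cre livers, with medians of -0.26 in constitutive KO and -0.21 in acute Cre. The difference itself, constitutive minus acute, was called in 27 of 10682 genes (0.253%), 5 higher (0.0468%) and 22 lower (0.206%). The acute livers had received virus and none is labelled for the constitutive ones. Virus and the time of deletion therefore cannot be told apart in this difference. The median difference over all genes was -0.11, or -0.0024 under median-of-ratios scaling, where 42 were higher and 15 lower. With the transcript length trend removed 13 genes were called, 8 higher and 5 lower, and 9 of the 27 stayed called. The direction of the imbalance thus depended on the processing.

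Nab1, Egr1 and Cpox were among the genes that differed. Nab1 rose in constitutive KO livers and had 2.04, 2.82 and 1.83 FPKM in acute Cre refed and 1.54, 2.45 and 2.22 FPKM in acute Cre fasted livers, which overlap (difference 1.32, limma adjusted p = 0.0263). Egr1, the early response factor that Nab1 restrains, had 2.83, 2.17 and 1.75 FPKM in constitutive KO refed and 3.90, 3.57 and 3.07 FPKM in constitutive KO fasted livers. In acute Cre livers it had 1.27, 2.68 and 1.82 FPKM refed and 20.4, 21.0 and 33.4 FPKM fasted (difference 2.66, 0.0433). The fasted acute Cre libraries thus stood far above the refed acute Cre and the constitutive KO libraries. Egr1 in acute GFP livers was not compared here. Cpox fell in constitutive KO livers and was at 0.096 in acute Cre livers (difference -1.04, 0.0263). Of 12 endothelial markers 11 were below 0 in constitutive KO and 12 above 0 in acute Cre livers, with medians of -0.23 and 0.74, and the part of that shift in the differences was not tested. Relative depth was 1.31, 0.625 and 0.625 in acute Cre refed and 1.16, 0.597 and 0.671 in acute Cre fasted libraries, so 1 library in each was deeper. Of the 27, only Nab1 was called without acute Cre refed 2, and no gene was called without acute Cre fasted 3, KO fasted 1 or KO fasted 3.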

How the data were processed

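Poly(A) RNA of snap-frozen mouse livers was sequenced from stranded mRNA libraries, per the labels' protocols. FPKM values were deposited by the authors for each library as Cufflinks tables on mm10; HISAT2, Cufflinks and Cuffdiff are named in the submitters' processing notes, without versions. Total depth is unknown. Relative depth was derived from the authors' upper confidence bounds of FPKM at 9954 loci expressed in every library. The tables list 23746 loci of 23284 symbols; 14 that failed in any library were left out. An exact 0 can be a failed estimate, and 20 of 2435 loci with a median of 20 FPKM or more were at 0 in some library.

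log2(FPKM + 1) was fitted with limma 3.58.1 (R 4.3.3, moderated with a mean trend) for genes at 1 FPKM or more in at least 3 libraries, with Benjamini-Hochberg adjustment over all genes tested and calls at adjusted p under 0.05. The KO, WT and difference contrasts used the 12 constitutive libraries, and those with acute Cre used all 24, acute GFP included. The code was tested on simulated data. Named genes were 13 fixed ones, the 15 largest rises and 15 largest falls with no overlap, called members of the lists and genes that differed from the acute response. Members and lists were chosen with earlier results of these data known. Alternatives changed the pseudocount, filter, scaling, weights, threshold, replicate block, fitted libraries and each library; removal of the length trend and counts of shared and non-overlapping genes without KO refed 2 were added after seeing the data. Tables were handled with Python 3.11.15 and pandas 2.3.3. Results for some genes that the naming rule selects are not reported here.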

Additional observations from a re-analysis of the deposited data

Results flagged for a closer look

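The refeeding response differed between constitutive KO and acute Cre livers for 12 named genes, each by limma's test of the difference itself (constitutive minus acute, log2 scale, adjusted p under 0.05 over 10682 genes). The difference was 2.66 for Egr1, 1.32 for Nab1, 0.746 for Gdap2, 0.558 for Baiap2l1 and 0.53 for Map1lc3a. It was -1.75 for Adh6-ps1, -1.26 for Cd55, -1.15 for Ptprb, -1.07 for Hgf, -1.04 for Cpox, -1.03 for Gimap4 and -0.674 for Clock. Cpox, Clock, Nab1, Gdap2 and Map1lc3a were called in constitutive KO livers. Each of the 12 lost its call without acute Cre fasted 3, without KO fasted 1 and without KO fasted 3, and Gdap2 without 11 of 12 libraries. With the length trend removed, 9 of the 27 genes called for this difference stayed called. Adh6-ps1 is a pseudogene whose reads may be shared with its parent family.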

How the results depend on the processing

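No filter gave 275 calls in KO livers, a threshold of 0.01 gave 41, the 6 libraries fitted alone gave 277, and leaving out 1 library gave 71 to 740. In WT livers these settings gave 21, 2 (Apoo-ps and Nab1) and 10, median-of-ratios scaling 82, array weights 156, the replicate block 80, removal of the length trend 86, and leaving out a library 6 to 32. The KO minus WT difference gave 0 to 1 calls with a library left out. Acute Cre livers gave 796 at 5 FPKM, 410 at 0.01, 569 fitted alone and 535 to 1255 with a library left out. Constitutive minus acute gave 13 at 5 FPKM, 57 under median-of-ratios scaling, 207 with array weights, 0 at 0.01, 77 with the replicate block, 13 with the length trend removed and 0 to 216 with a library left out. Same-numbered KO libraries did not pair (correlations 0.281, 0.217 and -0.06); the block gave 800 KO calls. Uncalled directions turned for Foxo1 (0.139 without the length trend, -0.064 to 0.013 with a library left out), G6pc (-0.094 to 0.377), Pck1 (-0.050 to 0.433) and Gimap4 (-0.219 to 0.036). Of 67 called named genes, 21 held with any 1 KO library left out. The causes were not tested. Total depth is unknown, and 3 libraries a group limit precision.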

Other observations

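Apoo-ps behaved in WT as in KO livers. It was at or near 0 in the 3 WT refed libraries and had 2.36, 3.49 and 2.72 FPKM in WT fasted livers, while the parent gene Apoo had 26.2, 27.2 and 28.9 FPKM in WT refed and 24.2, 23.8 and 26.3 FPKM in WT fasted livers. In acute Cre livers Apoo-ps had 10.8, 3.30 and 0.0543 FPKM refed and 11.9, 5.26 and 0.687 FPKM fasted, so the libraries overlapped.

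The heat shock element GAANNTTC, searched on both strands, was in 11 of 15 promoters of heat shock and cytosolic chaperone genes (73.3%), beside 7.37% of promoters of all genes tested, in RefSeq GRCm38.p6.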
